A study of Mus musculus with 60 samples.

Results

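Irradiated, vehicle-treated mice were compared with nonirradiated, vehicle-treated mice bled on Day 0. The labels placed 12 of the 60 mice of the series in this comparison, namely 6 mice given vehicle and TBI and bled on Day 1 (animals 49 to 54) and 6 mice given vehicle alone and bled on Day 0 (animals 13 to 18). The series profiled whole blood of male CD2F1 mice, a hybrid laboratory strain, given vehicle or BIO 300, an oral preparation of the isoflavone genistein. Per the study's methods, the mice were 5 to 6 weeks old when purchased, and every mouse used here received vehicle (water, 0.5% methylcellulose and 3% polyvinylpyrrolidone) by mouth, 12 doses over 6 days, and no BIO 300. The irradiated mice received 9.2 Gy of cobalt γ-radiation to the total body at 0.6 Gy/min and were bled 24 h later, which was 48 h after their last vehicle dose. The Day 0 mice were bled 24 h after their last dose. Irradiation, the day of bleeding and the time since dosing thus differed together between these groups, and their parts in a difference cannot be told apart within this comparison. For that reason the 6 nonirradiated vehicle mice bled on Day 1 (animals 25 to 30), which like the irradiated mice were 48 h past their final dose, are given beside the Day 0 mice for each gene list and for the genes that turned on them. Blood (1 mL) was drawn once per mouse from the inferior vena cava. The mice were housed 3 to a cage and irradiated 6 to a box, and the sources used here do not tie a mouse to its cage or box, so that cage or box effects within a group could not be examined.

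Ionizing radiation breaks DNA, and the kinase Atm then acts on the transcription factor p53, whose target genes arrest the cell cycle, repair DNA or start apoptosis. Resting B and T lymphocytes are among the most radiosensitive cells of the blood, whereas neutrophils are short-lived cells that the marrow releases under stress. Platelets and reticulocytes carry RNA but no nucleus, and their transcripts form a large part of RNA from whole blood.

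The counts per mouse summed to between 15099415 and 25211167 on Day 0 and between 21760205 and 28091646 in the irradiated mice. Levels are given as CPM, counts scaled to a common library size, on a TMM scale common to the 18 vehicle mice, and a mouse is called by its animal number. Of the 12 mice, 3 held transcripts of liver cells, which go against the label of whole blood. All 16 hepatocyte genes checked exceeded 10 CPM in Day 0 mouse 17 and in irradiated mice 49 and 51, against 1 of 16 in each of the other 9. Albumin (Alb) reached 7620 CPM in mouse 17, 3968 CPM in mouse 49 and 17981 CPM in mouse 51. In each of the other 9 mice it stayed at or under 1.48 CPM. Irradiated mice 49 and 51 also differed from the other irradiated mice in the share of counts on haemoglobin genes (4.54% and 1.63%, against 8.89% to 13.6%) and on mitochondrial genes (1.63% and 1.59%, against 0.175% to 0.355%). Among the Day 1 controls, mouse 29 met the same rule, with Alb at 988 CPM. Each gene list below is therefore given for all 12 mice and for the 9 mice left without mice 17, 49 and 51, called the liver-free mice.

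**Figure D1:**
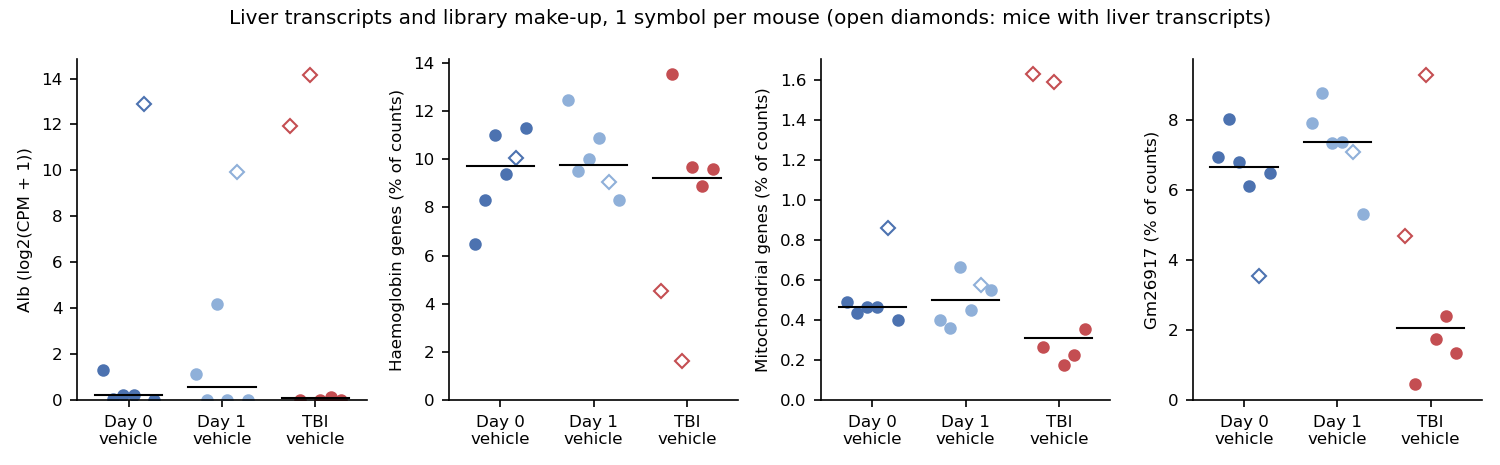
Alb as log2(CPM + 1) and the shares of counts (%) on haemoglobin genes, mitochondrial genes and the noncoding RNA gene Gm26917, with 1 symbol per mouse, lines at the medians of 6 mice, and open diamonds for mice with liver transcripts. Mice 17, 49 and 51 stand above the other Day 0 and irradiated mice for Alb, and mice 49 and 51 have the lowest haemoglobin shares of the irradiated group (4.54% and 1.63%).

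Irradiation with the Day 0 mice as controls gave 6668 differentially expressed genes (DEGs) among 24751 genes tested (26.9%), of which 3736 were higher (15.1% of the genes tested) and 2932 lower (11.8%). A gene was called a DEG where edgeR's quasi-likelihood test gave an adjusted p under 0.05 and the log2 fold change exceeded 1 in size. The median log2 fold change over all genes tested was 0.18, and 0.04 with scaling by total counts. The values of the 6 irradiated and the 6 Day 0 mice did not overlap for 4580 genes (18.5% of the genes tested), and 3565 of these were DEGs. Of the 8294 genes whose mean level reached 10 CPM in either group, 2633 were DEGs (31.7%), 1887 higher and 746 lower.

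Among the liver-free mice, 9268 of 22568 genes tested were DEGs (41.1%), 4431 higher (19.6%) and 4837 lower (21.4%), and the median log2 fold change was -0.12. Most of the calls did not rest on the 3 mice with liver transcripts: the liver-free mice gave the same call, with the same sign, for 6256 of the 6668 DEGs (93.8%) and the opposite call for 0. The other 412 DEGs, 253 higher and 159 lower, were not called there, 117 of them because too few counts were left to test them. A further 3012 genes were DEGs only in the liver-free mice, 948 higher and 2064 lower, and 359 of these lower genes had a positive log2 fold change with all 12 mice. The share of DEGs that were higher was 56.0% with all 12 mice and 47.8% in the liver-free mice. Which direction held the majority also turned with the scaling and the fit of all 12 mice, with 2831 higher and 2922 lower (49.2% higher) with scaling by total counts and 3742 and 3753 (49.9%) in 1 fit over the 18 vehicle mice, whereas without a filter on low counts 3188 were higher and 3010 lower.

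**Figure D2:**
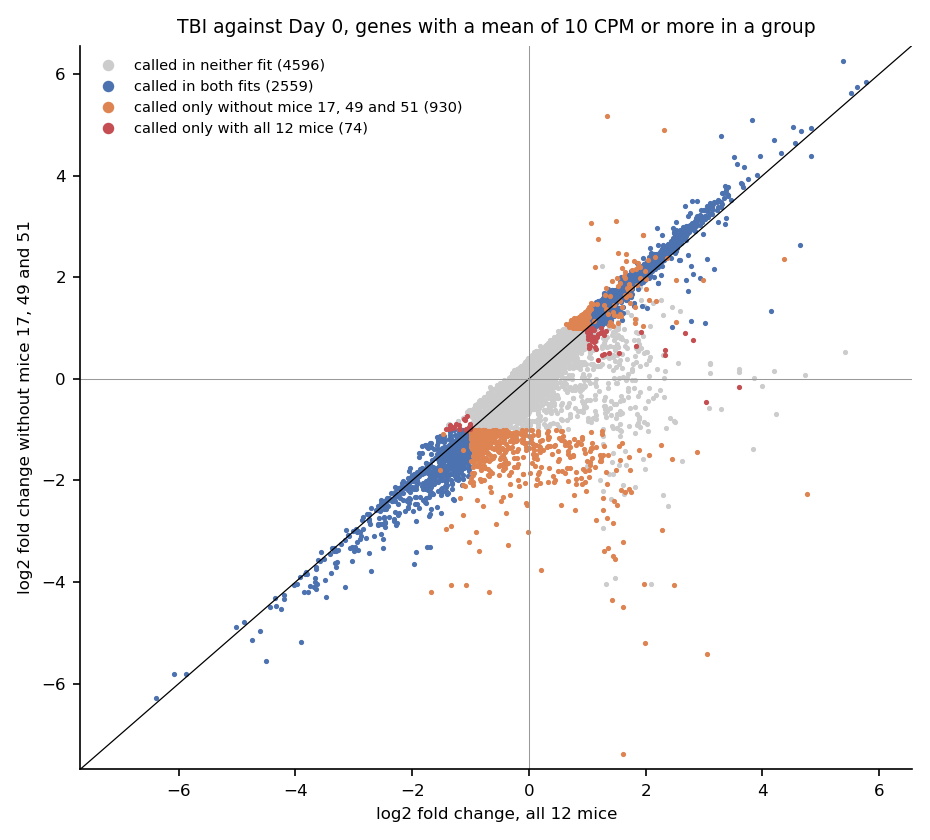
Log2 fold change of the irradiated against the Day 0 mice with all 12 mice (x axis) and without mice 17, 49 and 51 (y axis), 1 point per gene, for the 8159 genes tested in both fits whose mean level reached 10 CPM in either group. Of these genes, 2559 were DEGs in both fits, 930 only without the 3 mice and 74 only with them, and points at positive x and negative y are genes with a higher mean level with all 12 mice and a lower one without the 3 mice.

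The Day 1 controls gave 9041 DEGs among 25146 genes tested (36%), 4920 higher (19.6%) and 4121 lower (16.4%), so that 54.4% were higher, against 35.5% with scaling by total counts, where the median over all genes moved from 0.09 to -0.28. Without the mice with liver transcripts in either group, 10289 of 23274 genes tested were DEGs against Day 1, 4814 higher and 5475 lower. The majority was then lower, with 46.8% of these DEGs higher and a median log2 fold change of -0.16. The 2 control groups themselves were compared directly, since that difference separates both comparisons. Nonirradiated Day 1 mice differed from Day 0 mice in 0 of 24375 genes with edgeR, whose smallest adjusted p was 0.204, although 3007 genes had an unadjusted p under 0.05. DESeq2's Wald test called 37 of the same genes (0.152%), 1 higher (0.0041%) and 36 lower (0.148%) on Day 1. Among genes whose mean level reached 10 CPM in either group, 229 were DEGs against Day 0 and not against Day 1 (169 higher, 60 lower). Of these 229, 228 had a log2 fold change of the same sign against Day 1, 166 had an adjusted p under 0.05 there, and 10 exceeded 1 in size there. Both comparisons use the same irradiated mice, so that agreement between them is built in to a large part. Values against Day 1, here and below, are no independent evidence. Apart from the liver-free counts just given, they include the mice with liver transcripts in both groups. The choice of controls and the part of those mice were therefore not separated in them.

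**Figure D3:**
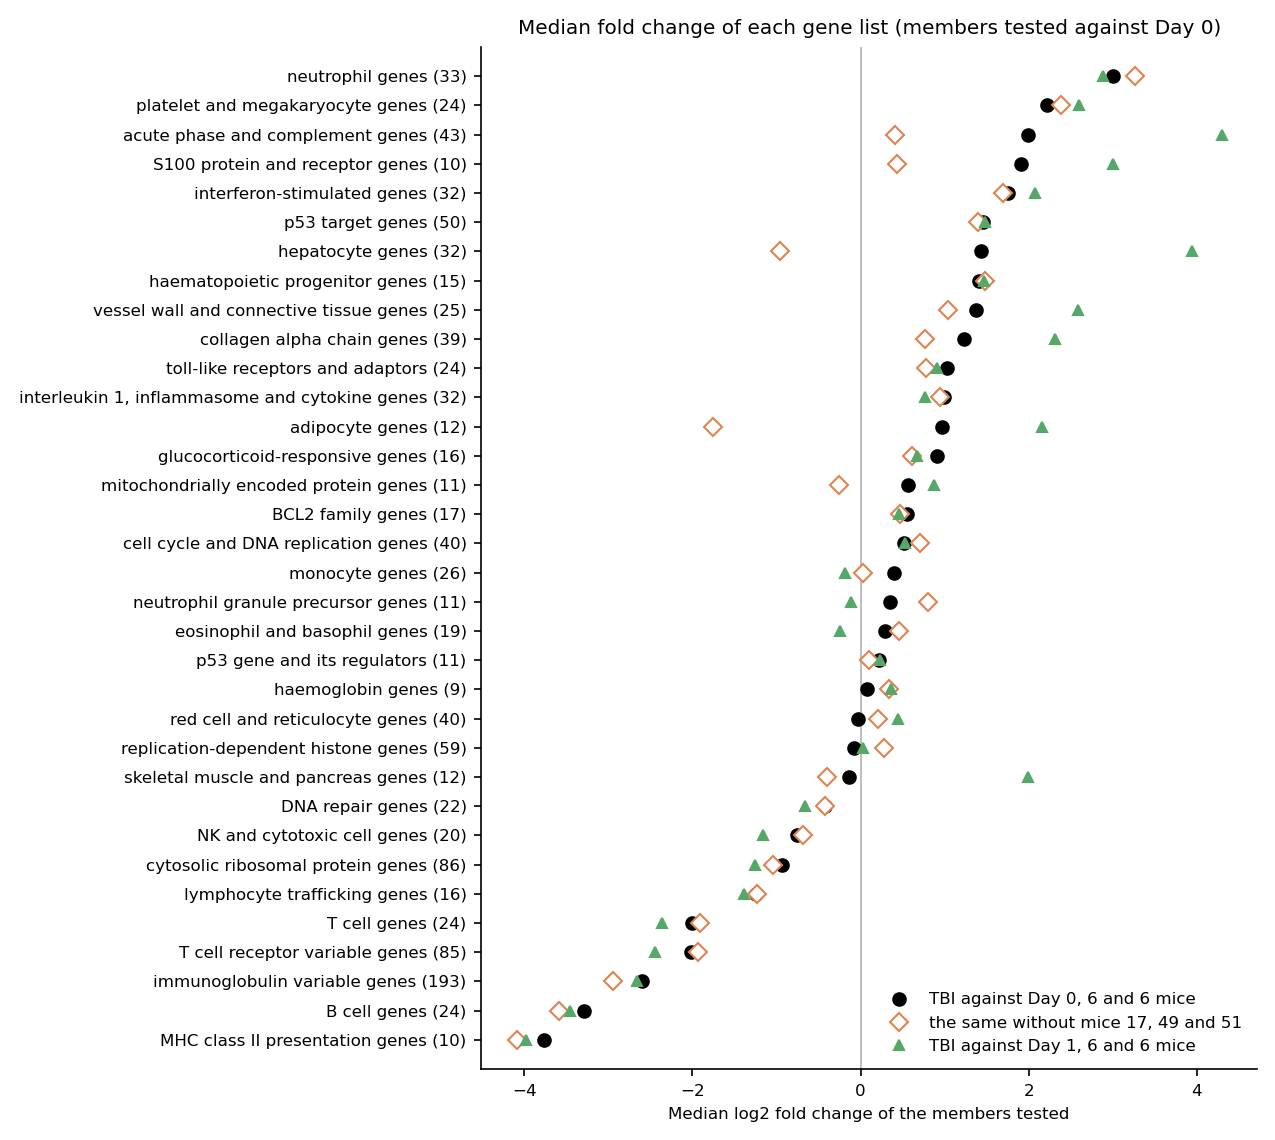
Median log2 fold change of each gene list (number of members tested against Day 0 in brackets) for the irradiated mice against Day 0 (filled circles), the same without mice 17, 49 and 51 (open diamonds) and the irradiated mice against Day 1 (triangles). The triangles include the mice with liver transcripts in both groups. The symbols lie together for the neutrophil, p53 target, B cell and MHC class II lists, and apart for the hepatocyte list, at 1.44, -0.96 and 3.94.

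The targets of p53 rose in the blood of the irradiated mice. Of 50 members of the p53 target list tested, 31 were higher and 3 lower (over all genes tested, 15.1% and 11.8%), with a median log2 fold change of 1.46. In the liver-free mice 32 were higher and 5 lower (median 1.40), and against the Day 1 mice 33 were higher and 3 lower (median 1.49). Cdkn1a encodes p21, the inhibitor that holds cells in G1, and Ccng1 encodes cyclin G1, a feedback regulator of p53. Their promoters (RefSeq, build GRCm38.p6, 250 bases before to 50 bases after the transcription start) are shown because these targets moved together, with matches to the p53 half-site in capitals. The Cdkn1a sequence is 1 of the 2 promoters listed for the gene, at chr17:29090729-29091028 (+ strand), and holds 2 matches, which begin 73 and 51 bases before the start. The Ccng1 sequence is at chr11:40755237-40755536 (- strand) and holds 1, which begins 185 bases before the start.
Cdkn1a: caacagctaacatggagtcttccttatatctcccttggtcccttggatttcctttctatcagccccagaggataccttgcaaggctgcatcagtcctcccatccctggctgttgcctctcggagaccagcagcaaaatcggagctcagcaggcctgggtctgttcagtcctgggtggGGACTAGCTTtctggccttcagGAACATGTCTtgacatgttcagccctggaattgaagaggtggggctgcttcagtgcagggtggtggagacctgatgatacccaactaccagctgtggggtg
Ccng1: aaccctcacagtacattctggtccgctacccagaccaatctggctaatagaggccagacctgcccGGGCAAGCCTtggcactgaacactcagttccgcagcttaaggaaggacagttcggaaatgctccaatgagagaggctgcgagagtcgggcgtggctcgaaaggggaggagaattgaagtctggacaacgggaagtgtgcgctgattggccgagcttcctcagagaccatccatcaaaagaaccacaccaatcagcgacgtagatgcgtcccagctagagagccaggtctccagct
Searched on both strands, the half-site was held by the promoters of 16 of the 41 p53 targets with a promoter in the table (39.0%), among them Mdm2, Bax, Aen and Gtse1, and by 2582 of all 27025 genes (9.55%). A match is a description of these letters and no evidence of binding.

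Cdkn1a (ENSMUSG00000023067, chromosome 17, 29090976 to 29100727) had a level of 1.03 to 1.84 CPM (median 1.5) on Day 0 and of 19.9 to 87.8 CPM (median 33.3) after TBI. The groups did not overlap, and mouse 51 was the highest. The gene rose 28.4-fold (log2 fold change 4.83 ± 0.33 SE, adjusted p = 4.38e-06), 20.8-fold in the liver-free mice and 19.8-fold against Day 1. Ccng1 stood at 47.2 to 62.8 CPM (median 54.5) on Day 0 and at 183 to 270 CPM (median 229) after TBI, again without overlap, a rise of 2.16 ± 0.16 on the log2 scale (adjusted p = 7.22e-06). Trp53inp1, a p53 target in autophagy and apoptosis and the most highly counted called member, rose from 146 to 180 CPM (median 162) to 235 to 792 CPM (median 587; log2 fold change 1.89, adjusted p = 0.000205). Eda2r, a death receptor of the TNF receptor family, had the largest change of the list (log2 fold change 5.45 ± 0.61) from a low base, with 0 to 0.249 CPM on Day 0 and 1.35 to 7.07 CPM after TBI.

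Members with roles in apoptosis were higher too, Bax by 1.41, Bbc3 (PUMA) by 2.13, Pmaip1 (NOXA) by 2.07 and the death receptor Fas by 1.70 on the log2 scale. The negative regulator Mdm2, an E3 ligase for p53, rose less, from 35.6 to 42.4 CPM (median 38.1) to 69.3 to 98.1 CPM (median 91.4; log2 fold change 1.25). Those 5 genes had no overlap between groups and kept log2 fold changes over 1 in the liver-free mice and against Day 1. The 3 lower members were Sesn1, a stress sensor (log2 fold change -1.17), Trim7 (-2.08) and the repair gene Ddb2 (-1.07). The liver-free mice decided a few members: Plk3 (1.58, adjusted p = 0.0453) was at 0.89 there and not called, while Ephx1, a hydrolase abundant in liver, was at 1.15 (adjusted p = 0.31) with all 12 mice and at -1.34 and called in the liver-free mice. Ptp4a3 was the most highly counted member and was not called (-0.42, adjusted p = 0.511).

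The p53 gene itself and the upstream kinase were lower. Trp53 fell from 27.1 to 39.6 CPM (median 36.2) on Day 0 to 10.4 to 15.3 CPM (median 11.5), a log2 fold change of -1.47 ± 0.13 (adjusted p = 1.91e-05). Atm went from 35.7 to 52.6 CPM (median 44.9) to 10.2 to 21.1 CPM (median 13.0; log2 fold change -1.56, adjusted p = 5.87e-05). Neither gene had values that overlapped between the groups, and both were as low in the liver-free mice (-1.65 and -1.81) and against Day 1 (-1.61 and -1.64). Of the 11 members of the list of p53 and its regulators, 2 were higher and 3 lower, with a median of 0.22, and the most highly counted members, the coactivator Ep300 (0.52) and the kinase Hipk2 (-0.24), were not called. The liver-free mice gave 2 higher and 4 lower, and the Day 1 controls 1 and 4. The 2 higher members were 1 without mouse 50 and 0 with scaling by total counts. In the DNA repair list, 0 of 22 members were higher and 2 lower (median -0.43), with Parp1, which marks DNA breaks with poly(ADP-ribose), at -2.51 and the excision repair gene Ercc1 at -1.13. Prkdc, the kinase of end joining and the most highly counted member besides Parp1, was not called (-0.34, adjusted p = 0.157). The 9 liver-free mice gave 3 higher and 6 lower repair genes, the Day 1 controls 1 and 4 (median -0.66), and without mouse 51 alone 4 were lower. Over all genes tested, 15.1% were higher and 11.8% lower against Day 0. These shares were 19.6% and 21.4% in the liver-free mice and 19.6% and 16.4% against Day 1. In the BCL2 family, 5 of 17 members were higher and 2 lower (median 0.56; 6 and 1 in the liver-free mice, 4 and 2 against Day 1), and 1 was lower without any 1 of mice 13, 15, 16, 49, 52 or 53. Bmf, a proapoptotic member, fell by 2.46 on the log2 scale, and the survival gene Mcl1 rose by 1.04, a call that was lost without mouse 17 (0.92), 52 (0.94), 53 (0.89) or 54 (0.99).

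Of the blood cell lists, that of B cells had the largest median fall. Of 24 B cell genes tested, 0 were higher and 22 lower (over all genes tested, 11.8% lower), with a median log2 fold change of -3.29. The counts were the same in the liver-free mice (0 and 22, median -3.58) and against the Day 1 mice (0 and 22, median -3.46). The 22 lower genes did not overlap between groups (over all genes tested, 18.5% did not). Fewer B cells and less B cell RNA per cell cannot be told apart in whole blood, which holds for every cell type list below. Ighd, the heavy chain of surface IgD on naive B cells, had 249 to 487 CPM (median 421) on Day 0 and 3.00 to 11.4 CPM (median 4.97) after TBI. It fell by 5.87 ± 0.38 (SE) on the log2 scale (adjusted p = 3.82e-06). Ighm, the IgM heavy chain, fell by 2.58, from 560 to 844 CPM (median 664) to 51.7 to 169 CPM (median 102). Vpreb3 fell by 5.28 and Fcer2a, the low-affinity IgE receptor CD23, fell by 4.88. The receptor subunits Cd79a (-3.67) and Cd79b (-3.32) and the transcription factors Pax5 (-3.64) and Ebf1 (-3.66) lay between these values. The members not called were Ralgps2 (0.44, adjusted p = 0.279) and Cd37 (-0.37, adjusted p = 0.152), a tetraspanin also present on other leukocytes. The summed level of the list was 2700 to 4207 CPM on Day 0 and 522 to 745 CPM after TBI.

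Immunoglobulin variable genes went the same way, with 0 of 193 tested higher and 158 lower (over all genes tested, 15.1% and 11.8%) and a median of -2.60. In the liver-free mice 169 of 190 were lower (over all genes tested, 21.4%). Against Day 1, 169 of 197 were lower and 1 higher (over all genes tested, 16.4% and 19.6%). Iglv3, the most highly counted, fell by 3.65, from 17.1 to 26.5 CPM to 1.10 to 2.77 CPM, and Iglv1 fell by 2.25. The largest changes were of rare segments: Igkv4-51 fell by 6.32, and Ighv15-2, with 47 counts on Day 0, had 0 counts in the 6 irradiated mice, which makes it at least 16.1-fold lower with a floor of 3 counts over the group. Reads of these near-identical segments can be shared or lost in counting, so that single segments are uncertain. With a stricter filter on low counts (filterByExpr), which left fewer genes to test, 100 were lower.

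All 10 genes of MHC class II presentation were lower (over all genes tested, 11.8%), with a median log2 fold change of -3.77 (-4.09 in the liver-free mice, -3.98 against Day 1). None overlapped between groups (over all genes tested, 18.5% did not). MHC class II molecules present peptides on B cells, dendritic cells and other antigen-presenting cells. Ciita, the coactivator that switches these genes on, went from 71.7 to 138 CPM (median 115) to 1.28 to 6.94 CPM (median 3.70), a log2 fold change of -4.75 ± 0.35 (adjusted p = 5.19e-06). H2-Ob, a chain of the peptide exchange regulator H2-O, fell by 4.44. Among the classical chains and the invariant chain, H2-Aa fell by 3.76 (19.4 to 56.0 CPM after TBI, 370 to 671 CPM on Day 0) and Cd74 fell by 3.68 (49.6 to 183 CPM against 973 to 1682 CPM). The H2-Aa promoter (RefSeq, GRCm38.p6, chr17:34287774-34288073, - strand) is shown because the list moved as 1 block. Its CCAAT box, found here on the reverse strand as the capitals ATTGG, begins 48 bases before the start.
H2-Aa: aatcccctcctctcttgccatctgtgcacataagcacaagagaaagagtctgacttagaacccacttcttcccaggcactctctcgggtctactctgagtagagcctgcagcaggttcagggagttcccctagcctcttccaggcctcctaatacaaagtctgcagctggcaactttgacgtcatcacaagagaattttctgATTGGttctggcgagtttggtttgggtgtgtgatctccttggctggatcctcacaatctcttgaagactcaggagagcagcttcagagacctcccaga
Searched as CCAAT on both strands, the box was held by the promoters of 7 of the 7 MHC class II genes with a promoter in the table, and by 11096 of all 27025 genes (41.1%).

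T cell genes fell by less than B cell genes did. Of 24 tested, 0 were higher and 23 lower (over all genes tested, 15.1% and 11.8%), with a median log2 fold change of -2.0. The median was -1.91 in the liver-free mice and -2.36 against Day 1, with 23 lower in both (over all genes tested, 21.4% and 16.4%). The largest falls were of the CD8 chains: Cd8b1 had 9.90 to 29.3 CPM (median 22.8) on Day 0 and 0.0316 to 0.749 CPM (median 0.255) after TBI, a log2 fold change of -6.07 ± 0.64 (adjusted p = 4.25e-05). Cd8a fell by 5.02, from 9.35 to 30.4 CPM to 0.284 to 1.16 CPM. The groups did not overlap for either chain. Cd4, the coreceptor of helper T cells, fell by 2.06 and the receptor chain Cd3e by 1.88. Tcf7, a transcription factor of naive and memory T cells, went from 92.4 to 232 CPM (median 185) to 6.91 to 52.9 CPM (median 33.6; log2 fold change -2.36). Lat, an adaptor also present in platelets, was the member not called (0.37, adjusted p = 0.431). The control mouse with liver transcripts stood apart here as well: the summed level of the list was 724 CPM in Day 0 mouse 17 and 1430 to 1826 CPM in the other 5 Day 0 mice.

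T cell receptor variable genes gave 0 higher and 49 lower of 85 tested (median -2.02), 2 and 46 of 83 in the liver-free mice (median -1.93) and 1 and 72 of 87 against Day 1 (median -2.45). That count rested in part on mouse 14, without which 31 were lower. With filterByExpr, which left fewer genes to test, 12 were lower. Trbv13-1 fell by 2.05, while Trbv13-2 was not called (-0.82, adjusted p = 0.0511). Trav16d-dv11 fell by 4.96, and Trav13d-4 went from 17 counts on Day 0 to 0 counts, at least 5.57-fold lower with the same floor. Among genes of lymphocyte trafficking, 0 of 16 were higher and 9 lower (median -1.24), with 0 and 8 in the liver-free mice and 0 and 9 against Day 1. Beside both lists of this paragraph, 15.1% of all genes tested were higher and 11.8% lower against Day 0. These shares were 19.6% and 21.4% in the liver-free mice and 19.6% and 16.4% against Day 1. Ccr6, the receptor for the chemokine CCL20 on B cells and T helper 17 cells, had 14.5 to 25.4 CPM (median 22.7) on Day 0 and 0.0797 to 0.437 CPM (median 0.212) after TBI, a log2 fold change of -6.38 ± 0.39 (adjusted p = 3.00e-06). Ccr7, which guides lymphocytes into lymph nodes, fell by 2.84, and S1pr1, which lets them leave, fell by 1.86. The integrin Itga4 (0.40, adjusted p = 0.265), shared with myeloid cells, was not called.

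NK and cytotoxic cell genes depended on the controls and on single mice. Of 20 tested, 1 was higher and 3 lower (median -0.76; over all genes tested, 15.1% and 11.8%), with 1 and 5 in the liver-free mice (median -0.68). Against the Day 1 mice 1 of 21 was higher and 11 were lower (median -1.17; over all genes tested, 19.6% and 16.4%). The 3 lower genes against Day 0 were the receptors Klrk1 (-1.20) and Klrd1 (-1.35) and the transcription factor Eomes (-1.87). Without mouse 17, 8 were lower, without mouse 53, 7 were lower, and with scaling by total counts 8 were lower. Gzma, a granule protease, was not called (-0.67, adjusted p = 0.248; -1.18 and called against Day 1). The higher member, Cd226, rose by 2.41, from 429 to 974 CPM to 867 to 5494 CPM, with overlap between groups. It is an activating receptor that platelets carry too, and its relation to the platelet genes described below was not tested.

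Neutrophil genes rose as a block. Of 33 tested, 31 were higher and 0 lower (over all genes tested, 15.1% and 11.8%), with a median log2 fold change of 3.01. In the liver-free mice and against Day 1 all 33 were higher (medians 3.27 and 2.89), where 19.6% of all genes tested were higher in each comparison. Csf3r, the receptor for the granulocyte growth factor G-CSF, had 233 to 342 CPM (median 276) on Day 0 and 654 to 3951 CPM (median 2617) after TBI. The groups did not overlap, with the lowest irradiated value in mouse 51. The gene rose 9.50-fold (log2 fold change 3.25 ± 0.41 SE, adjusted p = 0.00012) and 11.3-fold in the liver-free mice. S100a9, a calcium-binding alarmin, rose by 2.76, from 103 to 245 CPM (median 126) to 198 to 1345 CPM (median 979), where 1 irradiated mouse fell within the Day 0 range. The largest changes were of Wfdc17 (3.95, 3.05 to 11.6 CPM against 48.7 to 89.0 CPM) and of the chemokine receptor Cxcr1 (3.85, up to 0.440 CPM on Day 0 and 1.01 to 6.49 CPM after TBI). The chemokine receptor Cxcr2 (3.22), the surface marker Ly6g (3.01), the protease Mmp9 (2.65) and the formyl peptide receptor Fpr1 (3.16) rose with them. The 2 members not called, Wfdc21 (1.19, adjusted p = 0.446) and Cebpe (0.99, adjusted p = 0.0744), were called in the liver-free mice (2.75 and 1.09). Wfdc21 stood at 26.4 CPM in Day 0 mouse 17, whereas the other Day 0 mice held 0.719 CPM or less. Mrgpra2a and Mrgpra2b are near-identical copies whose separate values (3.30 and 3.48) are uncertain.

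Genes of neutrophil granules, which marrow precursors make before release, did not move as the mature markers did. Of 11 tested, 2 were higher and 2 lower (median 0.35; over all genes tested, 15.1% and 11.8%). The liver-free mice gave 2 and 2 of 10 (median 0.80) and the Day 1 controls 3 and 2 of 11 (median -0.12). Without any 1 of mice 15, 16, 18, 49 or 53, 1 was lower. Lcn2, a secondary granule protein also made by liver and other tissues, rose by 3.13 (5.40 to 35.7 CPM against 57.1 to 204 CPM), and Chil3 fell by 2.54 and Camp fell by 1.54. Prtn3, a primary granule protease, was higher by 4.21 with all 12 mice and by 1.17 (adjusted p = 0.0901) in the liver-free mice. Mouse 51 alone held 13.4 CPM and the other irradiated mice at most 1.28 CPM.

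**Figure D4:**
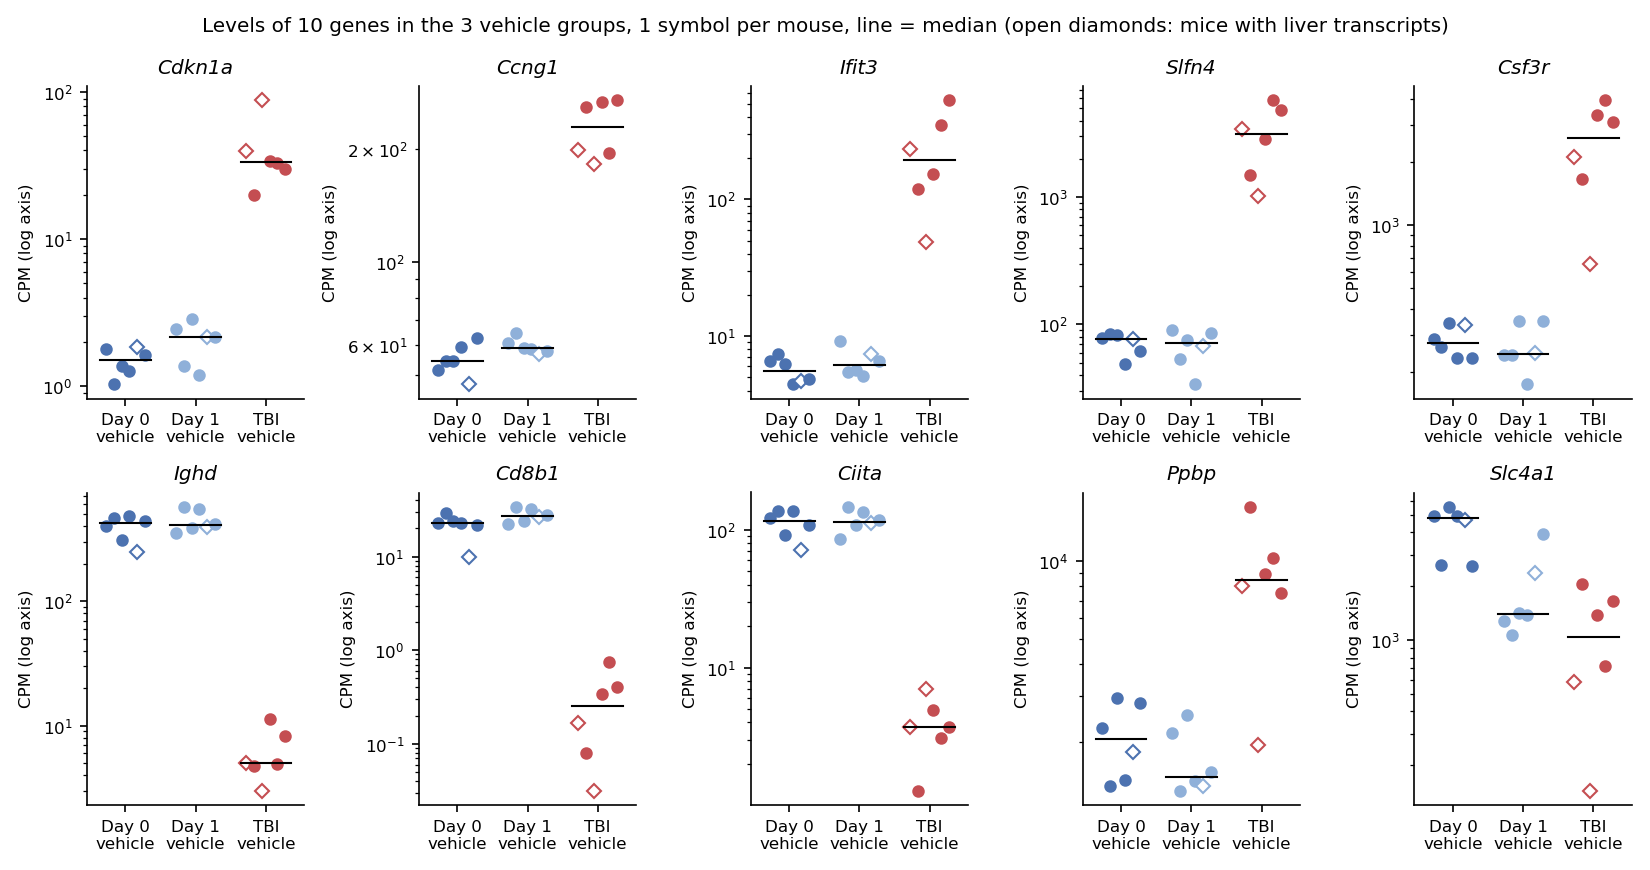
Level (CPM, log axis) of 10 genes in each Day 0, Day 1 and irradiated mouse, with lines at the group medians and open diamonds for mice with liver transcripts. Cdkn1a, Ccng1, Ifit3, Slfn4 and Csf3r lie above both control groups in all 6 irradiated mice, Ighd, Cd8b1 and Ciita lie below them, Ppbp overlaps through mouse 51, and Slc4a1 separates the irradiated mice from Day 0 but not from Day 1.

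Sensors and cytokines of innate immunity that neutrophils and monocytes carry were also higher. Over all genes tested, 15.1% were higher and 11.8% lower against Day 0. These shares were 19.6% and 21.4% in the liver-free mice and 19.6% and 16.4% against Day 1. In the list of toll-like receptors and adaptors, 11 of 24 were higher and 2 lower (median 1.03), with 12 and 3 in the liver-free mice (median 0.78) and 10 and 3 against Day 1 (median 0.91). Cd14, the lipopolysaccharide coreceptor, rose by 2.98 (2.17 to 5.57 CPM against 12.5 to 42.3 CPM), Tlr4 by 2.32, Tlr13 by 2.41 and the adaptor Myd88 by 1.96. Tlr9, the DNA sensor that B cells carry, fell by 2.84 (17.6 to 27.5 CPM against 1.51 to 3.78 CPM), and the chaperone Unc93b1 was not called (0.49, adjusted p = 0.0655). In the interleukin 1, inflammasome and cytokine list, 12 of 32 were higher and 3 lower (median 0.99), with 13 and 4 of 30 in the liver-free mice (median 0.94) and 14 and 7 of 33 against Day 1 (median 0.76). Il1b rose by 3.00 ± 0.40, from 46.6 to 89.7 CPM (median 56.7) to 115 to 692 CPM (median 498), without overlap. Its decoy receptor Il1r2 rose by 3.75, the antagonist Il1rn by 2.66 and the inflammasome sensor Nlrp3 by 2.73. The chemokine Cxcl2 rose by 4.19 from at most 0.199 CPM. The 3 lower genes were Nlrc4 (-1.38), Il12a (-1.22) and Ccl3 (-1.25), and without mouse 17 the number lower was 7. Tgfb1 was higher by 0.83 and did not reach the fold threshold.

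Monocyte genes did not move in 1 direction. Of 26 tested, 7 were higher and 6 lower (over all genes tested, 15.1% and 11.8%), with a median of 0.40, and without mouse 17 the number higher was 11. The liver-free mice gave 6 higher and 7 lower (median 0.03) and the Day 1 controls 5 and 6 (median -0.18), so that the sign of the median depended on the controls. Lower were the chemokine receptors Ccr2 (-1.67), which marks classical monocytes, and Cx3cr1 (-1.82), which marks the nonclassical subset, together with Irf8, a transcription factor of monocytes, dendritic cells and B cells. Irf8 went from 67.3 to 106 CPM (median 94.3) to 7.49 to 15.4 CPM (median 11.5), a fall of 2.90 ± 0.18 (adjusted p = 3.00e-06). Higher were the growth factor receptor Csf1r (1.47), Cd14 (2.98), the clotting factor subunit F13a1 (1.95), which platelets also carry, and Lyz2, lysozyme (1.19). The call of Lyz2 rested on mouse 51, without which it was 0.99, and in the liver-free mice it was 0.89. The complement genes C1qa, C1qb and C1qc, made by tissue macrophages, were at 3.61, 3.86 and 3.60 with all 12 mice (adjusted p = 0.147, 0.131 and 0.160) and at 0.20, 0.02 and 0.14 in the liver-free mice. C1qa reached 177 CPM in mouse 51 and 49.4 CPM in mouse 49, against at most 1.47 CPM in the other irradiated mice.

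Over the joint list of 19 eosinophil and basophil genes, 4 were higher and 4 lower (median 0.29; over all genes tested, 15.1% and 11.8%). The liver-free mice gave 4 and 6 (median 0.46) and the Day 1 controls 4 and 5 (median -0.25). The 4 lower members are known from basophils and mast cells, a description made after their values were seen. Other genes known from these cells, Cpa3, Gata2, Il4 and Il3ra, are in the list too and were not called lower with all 12 mice. The protease Mcpt8 fell by 4.68 (0.896 to 2.78 CPM against 0 to 0.133 CPM), the IgE receptor chain Ms4a2 fell by 4.37, Fcer1a fell by 3.44 and Cd200r3 fell by 3.45, each without overlap. Hdc, which makes histamine and is also a neutrophil gene, rose by 3.24. Alox15, a lipoxygenase of eosinophils and macrophages, was higher by 2.68 (adjusted p = 0.0231). It stood at 983 CPM in mouse 51 and 28.6 to 134 CPM in the other irradiated mice, and was not called without mouse 51 (1.04) or without mouse 16 (2.57).

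All 24 platelet and megakaryocyte genes were higher (over all genes tested, 15.1%), with a median log2 fold change of 2.22 (2.39 in the liver-free mice, 2.60 against Day 1). The values of 21 of these 24 genes nevertheless overlapped between the groups, and over all genes tested 18.5% did not overlap. Ppbp, a platelet chemokine precursor, had 1346 to 2942 CPM (median 2045) on Day 0 and 1949 to 16165 CPM (median 8459) after TBI, with mouse 51 inside the Day 0 range. It rose 4.55-fold (log2 fold change 2.19 ± 0.47 SE, adjusted p = 0.00299). Nrgn, a calmodulin-binding protein abundant in platelets, rose by 2.37 (672 to 1637 CPM against 1274 to 8168 CPM). Selp, the adhesion molecule P-selectin (2.69), Thbs1, thrombospondin (2.52, 340 to 609 CPM against 1032 to 5233 CPM), and Clu (2.26) were the 3 without overlap. Selp was the exception within the list, with 145 CPM in its highest irradiated mouse and a log2 fold change of 1.94 in the liver-free mice.

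The haemoglobin genes were not called, with 0 of 9 in either direction in edgeR and in DESeq2 and 1 of 9 at an unadjusted p under 0.05 (median 0.07, and -0.25 with scaling by total counts). The liver-free mice and the Day 1 controls also gave 0 in either direction (medians 0.34 and 0.36). Hbb-bs was at 0.20 (adjusted p = 0.866) and Hbb-bt at -0.85 (adjusted p = 0.259). The irradiated mice were spread widely, from 12338 CPM for Hbb-bs to 234778 CPM in mouse 50, against 57946 to 127041 CPM on Day 0. Without mouse 50, Hbb-bt was lower by 1.48 and called and Hbb-bs stood at -0.39. Leaving out mouse 50 or 54 made 1 of the 9 lower, and scaling by total counts 2. The near-identical copies Hba-a1 and Hba-a2 are not separated here. Depletion of globin RNA is part of the library kit that the study's methods name, so that these levels also depend on how far depletion went.

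The calls of red cell and reticulocyte genes also depended on the choice of controls. Of 40 tested against Day 0, 8 were higher and 7 lower (median -0.04; over all genes tested, 15.1% and 11.8%), while against Day 1 12 were higher and 0 lower (median 0.44; over all genes tested, 19.6% and 16.4%). The liver-free mice gave 11 higher and 6 lower (median 0.21). The lower genes included the anion exchanger Slc4a1 (band 3), the spectrin Sptb of the membrane skeleton, the mitochondrial iron carrier Slc25a37, Ube2o, Trim10 and Bpgm. Slc4a1 had 2609 to 5566 CPM (median 4825) on Day 0, 1064 to 3928 CPM (median 1399) on Day 1 and 144 to 2068 CPM (median 1048) after TBI. The irradiated mice lay below every Day 0 mouse and overlapped the Day 1 mice. The log2 fold change was -1.84 ± 0.54 against Day 0 (adjusted p = 0.0173) and -0.84 against Day 1 (adjusted p = 0.204), and the nonirradiated Day 1 mice differed from Day 0 by -1.16 (adjusted p = 0.24). Among the higher genes were the transcription factors Gata1 (2.38) and Tal1 (2.31), the erythropoietin receptor Epor (2.40) and the transferrin receptor Tfrc (1.49). Gata1 and Tal1 act in megakaryocytes too. Alas2, the first enzyme of haem synthesis, was not called (0.09, adjusted p = 0.924), nor was the membrane protein Epb41 (-1.36, adjusted p = 0.0798).

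The number of lower red cell genes moved with single mice. It was 14 without mouse 50, 4 without mouse 13, 15 or 16, and 2 without mouse 49 or 53, and 14 with scaling by total counts. Mouse 50 had the highest haemoglobin share of the irradiated mice and a TMM factor of 0.556. Its part in the count was not tested further. Without it, Epb41 was lower by 1.92 and called.

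The 10 genes that separated the Day 0 from the Day 1 controls most, among those called against Day 0 and not against Day 1, were mostly of this kind. After Slc4a1 they included the spectrin Sptb (-1.89 against Day 0, -1.07 against Day 1), the membrane skeleton protein Add2 (-1.54 and -0.70), the erythroid gene Trim10 (-1.53 and -0.64), Ranbp10 (-1.52 and -0.71), Pkd1l1 (-1.77 and -0.93) and Ifrd2 (-1.5 and -0.56). Ifrd2 had 39.9 to 84.8 CPM on Day 0, 21.6 to 50.6 CPM on Day 1 and 14.4 to 28.5 CPM after TBI. The calls of Trim10 were lost without mouse 13, 15, 49 or 53 (-1.51, -1.40, -1.42 and -1.48), and those of Add2 without mouse 15, 49 or 53 (-1.42, -1.42 and -1.47). Scfd2 and Gm10800 were of another kind. Scfd2 was at -2.26, with 77.9 CPM in mouse 16 and a Day 0 median of 7.31 CPM, and was at -0.81 and not called without that mouse. Gm10800, a predicted gene, was higher by 1.09 against Day 0 and at -0.05 against Day 1, and lost its call without mouse 17 (0.99) or 54 (0.98).

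**Figure D5:**
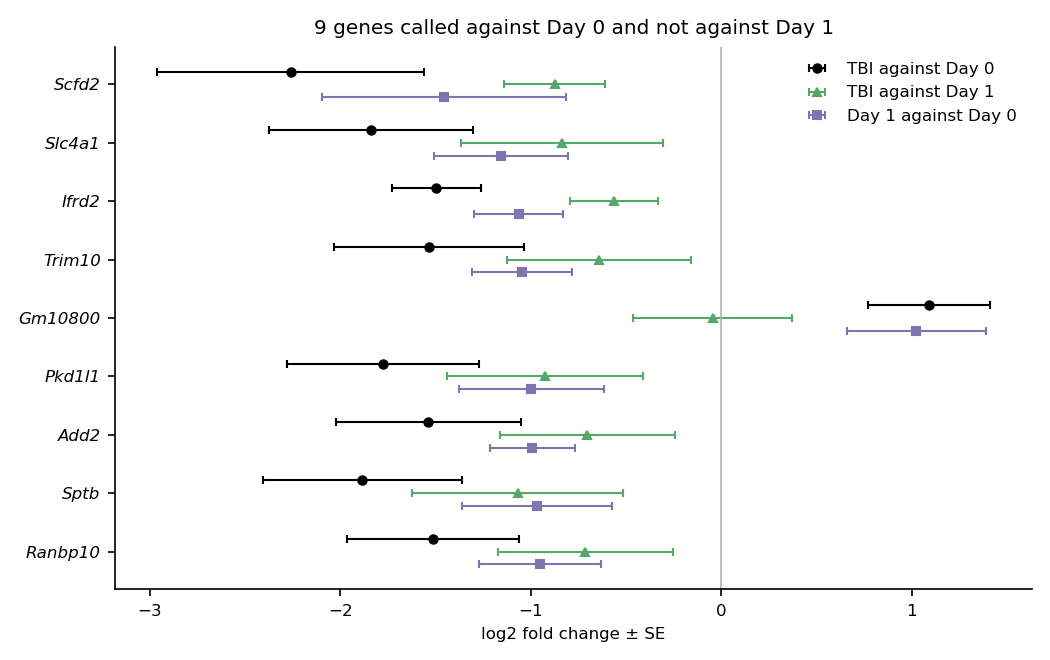
Log2 fold change ± SE of 9 genes called against Day 0 and not against Day 1, for the irradiated mice against Day 0, the irradiated mice against Day 1, and the nonirradiated Day 1 mice against Day 0. For Slc4a1 the 3 values are -1.84, -0.84 and -1.16, so that the nonirradiated Day 1 mice lie between the Day 0 and the irradiated mice.

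Interferon-stimulated genes rose, and genes of this kind made up 8 of the 10 largest increases without overlap. Of 32 tested, 25 were higher and 0 lower (over all genes tested, 15.1% and 11.8%), with a median log2 fold change of 1.76. The counts were 23 and 0 in the liver-free mice (median 1.70) and 22 and 0 against Day 1 (median 2.08). In each of these 19.6% of all genes tested were higher. Interferons act through a complex of transcription factors that binds the interferon-stimulated response element (ISRE), whose core was searched on both strands as a pair of GAAA with any 2 bases between them. The promoters of Ifit3 (RefSeq, GRCm38.p6, chr19:34583279-34583578, + strand) and of its near-identical neighbour Ifit3b (chr19:34607707-34608006, + strand) are shown because these genes carried the largest changes of the list. Each holds 2 matches on the reverse strand, in capitals, which begin 156 and 122 bases before the start in Ifit3 and 188 and 154 bases before it in Ifit3b.
Ifit3: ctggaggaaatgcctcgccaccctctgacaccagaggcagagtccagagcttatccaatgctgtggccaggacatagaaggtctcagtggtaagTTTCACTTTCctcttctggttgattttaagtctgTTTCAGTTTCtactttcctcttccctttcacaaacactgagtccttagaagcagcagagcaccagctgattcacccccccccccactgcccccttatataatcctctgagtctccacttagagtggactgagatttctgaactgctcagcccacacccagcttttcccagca
Ifit3b: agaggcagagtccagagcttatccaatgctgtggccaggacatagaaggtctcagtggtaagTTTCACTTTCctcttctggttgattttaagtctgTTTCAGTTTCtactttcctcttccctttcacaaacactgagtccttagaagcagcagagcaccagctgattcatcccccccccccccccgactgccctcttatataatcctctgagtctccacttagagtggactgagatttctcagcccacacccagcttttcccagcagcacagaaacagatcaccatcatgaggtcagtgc
The core was held by the promoters of 15 of the 23 list members with a promoter in the table (65.2%) and by 1079 of all 27025 genes (3.99%). Isg15 (0.84, adjusted p = 0.109), Rsad2 and Bst2 (1.29, adjusted p = 0.0508), which were not called, held it as well. Matches of the p53, ISRE and CCAAT motifs were counted separately and may overlap.

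Ifit3, an antiviral protein that binds foreign RNA complexes, had 4.44 to 7.46 CPM (median 5.57) on Day 0 and 49.1 to 532 CPM (median 193) after TBI. The groups did not overlap, and the gene rose 45.6-fold (log2 fold change 5.51 ± 0.56 SE, adjusted p = 3.36e-05), 49.4-fold in the liver-free mice and 36.0-fold against Day 1. Ifit3b rose by 5.77, and counts of these copies can be exchanged between them. Slfn4, a Schlafen gene of myeloid cells, had 48.7 to 83.6 CPM (median 77.4) on Day 0 and 1020 to 5779 CPM (median 3159) after TBI, a log2 fold change of 5.61 ± 0.49 (adjusted p = 1.67e-05). The sensors of double-stranded RNA Oas2 (4.56), Oasl1 (4.31) and Oasl2 (4.83), Ifit1bl2 (4.66) and the membrane protein Ifitm1 (4.52, 11.4 to 27.7 CPM against 88.9 to 605 CPM) complete the 8 among the 10 largest increases called in all 12 and in the liver-free mice. The other 2 were Cdkn1a and Entpd3, an enzyme that degrades extracellular nucleotides (5.37, 0.148 to 1.24 CPM against 5.74 to 30.4 CPM).

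The most highly counted members did not follow. Rsad2, viperin, had 2822 to 4790 CPM on Day 0, 1241 to 3954 CPM on Day 1 and 268 to 3535 CPM after TBI (-1.02, adjusted p = 0.132), and was lower by 1.44 and called without mouse 50, which made it the 1 lower member there. Isg20 was at -0.14 (adjusted p = 0.831) and at 0.24 in the liver-free mice. Rsad2, like Slc4a1, had a lower median in the nonirradiated Day 1 mice than on Day 0, a difference that was not called (-0.85, adjusted p = 0.283). The calls of Mx1 (1.13), Ifi44 (1.29), Gbp3 (1.06) and Zbp1 (1.48) held only with the Day 0 controls, with 0.29, 0.59, 0.51 and 0.97 against Day 1. Of these 4, Mx1, Ifi44 and Gbp3 were also not called in the liver-free mice (0.81, 0.38 and 0.78).

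The 10 largest decreases without overlap in all 12 and in the liver-free mice were of lymphocytes and antigen presentation: Ccr6, Cd8b1, Ighd, Cd8a, Fcer2a, Ciita, H2-Ob, Chst3, Cacna1i and the unclassified transcript A530030E21Rik. Chst3, a chondroitin sulfotransferase, went from 80.5 to 143 CPM to 3.44 to 8.65 CPM (log2 fold change -4.34, adjusted p = 3.00e-06). Cacna1i, a T-type calcium channel subunit, went from 26.5 to 50.7 CPM to 0.444 to 4.83 CPM (-4.50), and A530030E21Rik from 10.4 to 15.8 CPM to 0.178 to 0.729 CPM (-4.60). The log2 fold changes against Day 1 of these 3 genes were -4.37, -4.59 and -4.98.

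Ribosomal protein genes were lower in part, with 0 of 86 higher and 40 lower (over all genes tested, 15.1% and 11.8%) and a median of -0.93. The liver-free mice gave 1 higher and 44 lower of 85 (over all genes tested, 19.6% and 21.4%). Against Day 1 there were 1 and 55 (over all genes tested, 19.6% and 16.4%). Rpsa fell by 1.71 (272 to 465 CPM against 74.9 to 188 CPM) and Rpl14 fell by 1.61, while Rpl41 (0.59, adjusted p = 0.312) and Rplp0 (0.26, adjusted p = 0.627) were not called. Of the cell cycle genes, 8 of 40 were higher and 3 lower (median 0.52; over all genes tested, 15.1% and 11.8%). That count rested on the mice included, with 18 higher and 2 lower in the liver-free mice and 11 and 3 against Day 1. The number higher was 14 without mouse 51 and 5 without mouse 13. It was 4 without mouse 14, 15, 16, 17, 18 or 54, and 3 without mouse 50. The proliferation marker Mki67 was not called with 12 mice (1.06, adjusted p = 0.0995) and was at 1.5 in the liver-free mice. Ccnd1, cyclin D1, was at 2.45 with all 12 mice and at 1.02 in the liver-free mice, with 73.6 CPM in its highest irradiated mouse. Cdt1, which licenses replication origins, fell by 1.94 (8.11 to 14.4 CPM against 2.31 to 3.41 CPM), and E2f2, also an erythroid gene, was not called (-0.99, adjusted p = 0.131). Of 59 replication-dependent histone genes, 8 were higher and 10 lower (median -0.08; over all genes tested, 15.1% and 11.8%), 5 and 16 with scaling by total counts, 12 and 10 in the liver-free mice (median 0.28) and 10 and 12 against Day 1 (median 0.03). Hist1h2bc rose by 1.64, Hist1h4m by 2.34 and Hist1h4k fell by 1.80. Hist1h1c (1.08) was not called without any 1 of mice 13, 14, 16, 17, 18, 50, 52, 53 or 54, with 0.73 without mouse 50 as its lowest value.

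Among 15 haematopoietic progenitor genes, 7 were higher and 2 lower (over all genes tested, 15.1% and 11.8%), with a median of 1.41. The liver-free mice gave 8 and 2 (over all genes tested, 19.6% and 21.4%) and the Day 1 controls 9 and 2 (19.6% and 16.4%). Tal1 and the myeloid factor Spi1 (1.65) rose, and Flt3, a receptor of lymphoid progenitors and dendritic cells, fell by 3.28 (3.48 to 5.83 CPM against 0.221 to 0.622 CPM). Procr (2.46), at most 1.07 CPM in any mouse, was not called without mouse 13 (2.16), 14 (2.15), 15 (2.32), 18 (2.28), 50 (2.28) or 54 (2.08). Of 16 glucocorticoid-responsive genes, 4 were higher and 1 lower (median 0.91; over all genes tested, 15.1% and 11.8%). The liver-free mice gave 5 and 2 (over all genes tested, 19.6% and 21.4%). Against Day 1 the counts were 5 and 1 (over all genes tested, 19.6% and 16.4%). Dusp1, a phosphatase, rose by 2.35 and Il1r2 by 3.75, whereas Txnip (0.96) and Tsc22d3 (0.85) stayed under the fold threshold.

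The hepatocyte list turned on single mice. With all 12 mice, 1 of 32 genes was higher and 0 lower (over all genes tested, 15.1% and 11.8%), with a median of 1.44. In the liver-free mice, chosen by 16 of these genes, 4 were higher and 4 lower of 19 tested (median -0.96). Those numbers lie near the shares over all genes tested there, 19.6% and 21.4%. Leaving out only mouse 17, the Day 0 mouse with liver transcripts, made 29 genes of the list higher (4463 of all 24491 genes tested). Alb shows the pattern: it stood at 1.48 (adjusted p = 0.729) with all 12 mice, at 13.3 and called without mouse 17, at -0.61 without mouse 51 and at -3.54 and called in the liver-free mice, where its level was at most 1.48 CPM. Apob followed, at 1.54, 12.6, -0.54 and -1.70. Against the Day 1 mice, mouse 29 among them, 2 of 32 were higher (over all genes tested, 19.6%), with a median of 3.94. The 4 higher genes in the liver-free mice were Hp, Apoa2, Apoh and Ambp, of which only Hp was also called with all 12 mice. Hp (haptoglobin) had 31.4 to 361 CPM on Day 0, where mouse 17 was the highest, 198 to 2852 CPM after TBI and a log2 fold change of 3.24 ± 0.83 with all 12 mice (adjusted p = 0.00851) and of 3.1 in the liver-free mice (adjusted p = 1.17e-07). Hp is made by neutrophils as well as by liver.

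Acute phase and complement genes turned on the same mice. Of 43 tested, 7 were higher and 3 lower (median 1.99; over all genes tested, 15.1% and 11.8%). There were 37 higher without mouse 17, and 16 higher and 2 lower against Day 1. The liver-free mice gave 7 higher and 4 lower of 30 tested (median 0.41). The higher genes that were called in both sets of mice were Hp, Lcn2, the complement regulator Cfp (2.72 and 1.72), the C5a receptor C5ar1 (3.14 and 3.37) and the integrin Itgam (2.72 and 2.44), all products of myeloid cells. Orm2 (2.81 and 0.77) and C3ar1 (1.54 and 0.51) were called only with the 3 mice included. C3 itself was at 2.52 (adjusted p = 0.227) with all 12 mice, at 5.68 without mouse 17, and higher by 1.12 (adjusted p = 0.000282) in the liver-free mice. The lower genes Cr2 (-3.22), Cd55 (-2.55) and Cd59a (-1.34) were lower in both sets of mice, Cr2 being a B cell receptor for complement. The serum amyloid genes Saa1 and Saa2, near-identical copies, were not called (4.95 and 5.46, adjusted p = 0.214 and 0.168) and too low to test in the liver-free mice.

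Other tissue genes were carried by the same mice only in part. Summed adipocyte levels were highest in mice 51, 49 and 17 (1789, 1644 and 1542 CPM), followed by Day 0 mouse 16 (812 CPM). The vessel wall and connective tissue list was highest in mouse 50 (1923 CPM), and mouse 51 was the lowest irradiated mouse (703 CPM). Over all genes tested, 15.1% were higher and 11.8% lower against Day 0, 19.6% and 16.4% against Day 1, and 19.6% and 21.4% in the liver-free mice. Of 12 adipocyte genes, 1 was higher, Retn (2.74), which neutrophils also carry, against Day 1 3 were higher, and in the liver-free mice 4 were lower, among them Scd1 (-3.02), which stood at 601 and 537 CPM in mice 49 and 51 and at 16.2 to 60.0 CPM in the other irradiated mice. Car3 was at 0.99 with all 12 mice and at -1.71 in the liver-free mice, and not called in either. Of 25 vessel wall and connective tissue genes, 8 were higher against Day 0 and 18 against Day 1 (medians 1.37 and 2.58), with 10 higher and 1 lower in the liver-free mice. The count of 8 was 4 without mouse 13 or 14 and 5 without mouse 15, 49 or 51. Mylk (1.90) and Pecam1 (1.67), both also platelet genes, and the endothelial receptor Kdr (2.07) were called in every set named in this paragraph. Of 39 collagen genes, 3 were higher and 1 lower against Day 0, and 19 higher and 1 lower against Day 1. The number higher was 6 in the liver-free mice, where 3 of 36 were lower, and also 6 without mouse 17, and 1 without mouse 15. Col6a4 fell by 4.19 (12.1 to 24.1 CPM against 0.239 to 1.46 CPM), without overlap. Col8a1 (2.82) lost its call in the liver-free mice (2.04) and without any 1 of mice 13, 14, 15, 17, 18, 50 or 51 (1.82 without mouse 51, 2.54 to 3.03 otherwise), and Col18a1 was at 1.83 with all 12 mice, at 6.06 and called without mouse 17, and at 1.10 and called in the liver-free mice.

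The list of S100 proteins and receptors gave 5 of 10 higher (median 1.91), 3 of 9 in the liver-free mice (median 0.43), 4 of 10 against Day 1, 8 without mouse 17 and 3 without any 1 of mice 13 to 16, 18, 49 or 51. Over all genes tested, 15.1% were higher against Day 0, and 19.6% both in the liver-free mice and against Day 1. S100b, Egfr and Fgfr1 to Fgfr4 are in the list because the study's account of these samples discusses them, so that their direction is not independent evidence. S100a8, S100a9, Ager and Tgfa were added here as related proteins. The study also discusses S100A8 and S100A9 in humans and TGF-α in mice and humans, so that these members are not independent of its account either. S100a8 (2.47), S100a9 (2.76) and Ager (1.82), the receptor RAGE, were called in both sets of mice. S100b (2.48) and Fgfr1 (3.03) were not: Fgfr1 was not called without any 1 of mice 13 to 16, 18, 49 or 51, held 176 CPM in mouse 51 and had 32.3 CPM in mouse 49, against 2.15 to 2.87 CPM in the other irradiated mice, and had a log2 fold change of -0.45 in the liver-free mice and of 1.02 without mouse 51. Of 12 muscle and pancreas genes tested, 3 were higher and 1 lower (over all genes tested, 15.1% and 11.8%). The liver-free mice gave 3 and 3 of 10 (over all genes tested, 19.6% and 21.4%), and the Day 1 controls 6 and 0 of 11 (19.6% and 16.4%). With single mice left out, the number lower ran from 0 to 3. The lower gene, Myh4, a fast muscle myosin, rested on mouse 16, with 36.8 CPM there and at most 0.107 CPM in the other Day 0 mice, and stood at 0.58 without it (-6.72 with all 12 mice). Its call was also lost without mouse 49, 50, 52, 53 or 54 (-6.65 to -6.50). Prss2 (3.75, at most 1.20 CPM) and Cela1 (2.32, 6.07 to 15.7 CPM against 15.4 to 90.5 CPM), enzymes best known from the pancreas, were higher in the liver-free mice also (4.13 and 2.56). Of 11 mitochondrially encoded genes, 1 was higher with all 12 mice, mt-Co3 (1.99, and 1.27 and not called without mouse 49), with 2 higher against Day 1 and 0 higher and 4 lower in the liver-free mice. The shares of all genes tested that were higher were 15.1% with all 12 mice and 19.6% against Day 1. In the liver-free mice 19.6% were higher and 21.4% lower. The values of mt-Co1 were 0.40 with all 12 mice and -0.29 in the liver-free mice, and those of mt-Cytb 0.68 and -0.21.

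The 10 most highly counted genes called only with all 12 mice were Gda (-1.34 with all 12 mice, -0.92 in the liver-free mice), Ube2o (-1.42, -0.99), Gpx1 (-1.20, -0.90), Bcl2l1 (-1.31, -0.97), Lyz2 (1.19, 0.89), Usp25 (-1.07, -0.72), Fam213a (-1.24, -0.88), Ube2h (-1.10, -0.80), Foxo4 (-1.36, -0.98) and Dhrs11 (-1.28, -0.95). Of these, Gpx1 encodes glutathione peroxidase and Bcl2l1 the survival protein BCL-XL, both abundant in red cell precursors. Gda, for example, had 3080 to 6215 CPM (median 4880) on Day 0, 1419 to 5638 CPM (median 2322) on Day 1 and 506 to 3456 CPM (median 1490) after TBI, and the groups overlapped. None of the 10 was called against the Day 1 mice.

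The 10 most highly counted genes called only in the liver-free mice were led by Gm26917, a noncoding RNA gene with 42855 to 83158 CPM on Day 0, which was at -1.0 (adjusted p = 0.238) with all 12 mice and lower by 1.96 in the liver-free mice. Irradiated mouse 51 held 76006 CPM of it, mouse 49 held 43191 CPM, and the 4 liver-free irradiated mice at most 26155 CPM. The others were Pabpc1 (-1.48 with all 12 mice, -1.08 in the liver-free mice), the elongation factor Eef1a1 (-0.995, -1.28), the iron store subunit Ftl1 (0.90, 1.25), the cytoskeletal genes Myh9 (0.91, 1.13) and Flna (0.89, 1.08), Gnas (0.97, 1.31), Odc1 (0.91, 1.16), Taldo1 (0.98, 1.20) and Gm8995 (0.97, 1.04). Pabpc1, which binds poly(A) tails, failed with all 12 mice on its adjusted p of 0.0589, and Eef1a1 on its fold. Both had the same sign with and without the 3 mice.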

How the data were processed

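RNA from whole blood of 60 mice was sequenced, and the 18 vehicle mice were used here, of which 12 (6 irradiated, 6 Day 0) form the comparison and 6 are the Day 1 controls. The deposited values were raw counts of reads per gene for 49315 genes. Per the labels and the study's methods, the authors trimmed reads with Trimmomatic 0.36, aligned them with STAR 2.5.2b to GRCm38 with the GENCODE M21 annotation and counted them with Subread 1.5.2. The labels name poly(A) selection, whereas the methods name a stranded total RNA kit with removal of ribosomal and globin RNA, so that the library type is uncertain, and with it the comparability of globin, histone and noncoding RNA levels with other genes. No count was altered.

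Genes with at least 10 counts summed over the mice of a fit were tested with edgeR 4.0.16 (TMM scaling, quasi-likelihood F test, Benjamini-Hochberg adjustment over all genes tested) in R 4.3.3, and DESeq2 1.42.0 (Wald test), the tool the authors used for their own DEGs, was an alternative. Standard errors (SE) were computed from each log2 fold change and its F statistic, as the absolute change over the root of F. Each comparison was fitted on its own mice. Depth was 15099415 to 32949547 counts per mouse. Replicates were separate mice, and no pair agreed within sampling noise (smallest chi-square per gene 27.5). Mice with liver transcripts had at least 10 of 16 hepatocyte genes over 10 CPM. Their exclusion is an alternative, and hepatocyte values without them are a description, since those genes chose the mice.

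The mice of the comparison were set by the labels. The gene lists, the liver rule and the alternatives were chosen with earlier results of these data known. Any list member could be named, and values were given for the 2 called members with the largest change and the 2 of highest level in each list. Other members given with values were picked after their values were seen. Further named genes were the 10 largest increases and 10 largest decreases without overlap, the 10 genes called against Day 0 and not Day 1 that differed most between the control groups, and the 10 of highest level whose call was lost, and the 10 whose call was gained, without mice 17, 49 and 51. The last 3 groups are descriptions of how they were chosen. Tested on simulated data with 200 changed genes of 23366 for this comparison, the test recovered 61% of genes with a log2 change of 2 and 33% of those with 1.5, with 5 false calls. DESeq2 recovered 88% and 69%, with 44 false calls. Far fewer genes changed in the simulation than were called in the data, so that it cannot show how wide shifts act on the scaling. The comparison of the control groups was not simulated. Alternatives were RLE scaling, total counts, DESeq2, filterByExpr, no filter, a term for odd and even animal numbers, both control groups together, 1 fit over 18 mice and leaving out each mouse. Promoters came from RefSeq (GRCm38.p6). A few of the genes that these rules name are not reported here.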

Additional observations from a re-analysis of the deposited data

Results flagged for a closer look

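Of 78 per-group values tested for 1 mouse standing apart from the other 5 (library totals and summed list levels), 16 did so by Dixon's 95% criterion, which chance alone meets in about 1 of 20 such groups. Mouse 17 gave 8 of the 16, mouse 51 gave 5, mouse 16 gave 2 and mouse 52 gave 1. The 78 values are not independent, since lists share members and mice.

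Day 0 mouse 17 was the highest of its group in the share of counts on mitochondrial genes (0.859%, nearest other 0.490%) and in the summed level of the hepatocyte list (27665 CPM, nearest other 77.4 CPM), the acute phase and complement list (7802 CPM, nearest other 469 CPM), the list of S100 proteins and receptors (677 CPM, nearest other 242 CPM), the mitochondrially encoded genes (10248 CPM, nearest other 5622 CPM) and the collagen genes (224 CPM, nearest other 89.3 CPM). It was the lowest of its group in the T cell list (724 CPM, nearest other 1430 CPM) and in the lymphocyte trafficking list (1378 CPM, nearest other 1993 CPM). Day 0 mouse 16 had the smallest total, 15099415 counts, and the highest level of muscle and pancreas genes, 120 CPM (nearest other 21.3 CPM).

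Irradiated mouse 51 was the highest of its group in the monocyte list (8715 CPM, nearest other 3825 CPM), the eosinophil and basophil list (1087 CPM, nearest other 510 CPM), the hepatocyte list (62862 CPM, nearest other 18593 CPM), the acute phase and complement list (34466 CPM, nearest other 9027 CPM) and the collagen genes (664 CPM, nearest other 175 CPM). Mouse 52 was the highest irradiated mouse in the B cell list, at 745 CPM (nearest other 602 CPM).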

How the results depend on the processing

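The number of DEGs against Day 0 (6668 of 24751 genes tested) ranged from 5027 of 15602 with filterByExpr to 9560 of 26086 with both control groups. With single mice left out, it ran from 5784 without mouse 14 to 7862 without mouse 51. Against Day 1 (9041) the range with single mice left out was 7853 without mouse 26 to 9692 without mouse 51. The number against Day 1 was 10289 of 23274 genes tested without the mice with liver transcripts in either group. Between the control groups edgeR called 0 genes under every edgeR setting, also with any mouse left out (0 to 0), and DESeq2 called 37. Of 156 named genes, 116 were called, and 155 kept their direction and side of the threshold with RLE scaling, 151 with DESeq2, 139 with total counts and 119 without mice 17, 49 and 51. With single mice left out, 22 lost a call, 20 gained one and 7 changed sign at least once.

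The signs below are those of the 156 genes that the naming rules chose. Log2 fold changes that changed sign were, without mice 17, 49 and 51, Hipk2 (0.017), Isg20 (0.24), Alb (-3.54), Apob (-1.70), Car3 (-1.71), Fgfr1 (-0.45), mt-Co1 (-0.29) and mt-Cytb (-0.21). With total counts they were Hbb-bs (-0.22), Alas2 (-0.32) and Rplp0 (-0.12), and without a filter Alas2 (-0.063). The term for odd and even numbers turned Hbb-bs (-0.030), Alas2 (-0.18) and Car3 (-0.012), both control groups turned Hipk2 (0.0038) and Isg20 (0.013), and 1 fit over 18 mice turned Alas2 (-0.023). With single mice left out, Hbb-bs ran from -0.39 (without mouse 50) to 0.40 (without mouse 51), and Alas2 from -0.52 to 0.29 and Rplp0 from -0.23 to 0.43 with the same mice. Isg20 ran from -0.63 (without mouse 50) to 0.051 (without mouse 51), Alb from -0.61 to 13.3 and Apob from -0.54 to 12.6 (without mouse 51 and without mouse 17), and Myh4 from -8.62 (without mouse 51) to 0.58 (without mouse 16). Among these genes, the only value with the changed sign that was called was that of Alb without mice 17, 49 and 51. Other genes, such as Ephx1, also changed sign and were called without these mice. The cause was not tested.

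No paired analysis was possible because each animal number occurs once and ties no mouse of one group to a mouse of another. The depth, at least 15099415 counts per mouse, limits genes under about 1 CPM, and the p-values measure the spread between mice of 1 experiment. CPM is relative within a library, so that a large change in one kind of transcript shifts the others.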
